A study of Mus musculus with 28 samples.

Results

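p53, encoded in the mouse by Trp53, and 9 of its known target genes (Mdm2, Ccng1, Trp53inp1, Bax, Bbc3, Fas, Perp, Aen and Gdf15) were followed in P19 cells, a mouse embryonal carcinoma line that turns neural in retinoic acid. The 10 genes were taken by symbol from the table of RNA counts, 10 of 55385 gene identifiers, together with every deposited peak within 1 kb of either end of each gene. RNA-seq held 10 libraries, 2 in each of 5 groups: untreated cells at day 0; cells at day 2 of 1 µM retinoic acid with MS-275; cells at day 2 of 1 µM retinoic acid with DMSO; cells at day 4 of 1 µM retinoic acid, which the labels call NSPCs; and day 8 cells, given the same 4 days of retinoic acid and then replated on poly-D-lysine in B27 medium. MS-275 inhibits class I histone deacetylases; 1 µL of a 10 mM stock, or 1 µL of DMSO, was added after the first day of retinoic acid, and the labels give no final concentration. Peak lists covered native ChIP-seq of H3K9ac, H3K9cr (crotonylation) and H3K18la (lactylation), with 1 library per mark for MS-275 and for DMSO and 2 per mark at day 4, and ATAC-seq with 2 libraries at day 4. All libraries come from this 1 cell line, and both day 2 groups carry retinoic acid.

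p53 is a transcription factor that is held low by the ubiquitin ligase Mdm2, itself a p53 target, and that accumulates after DNA damage and other stress, mainly because the protein is no longer degraded. It binds a response element made of a pair of half-sites and switches on genes that stop the cell cycle, repair DNA or start cell death. In mouse embryonic stem cells p53 is known to repress Nanog after DNA damage, which favours differentiation. The RNA level of Trp53 says nothing of the amount or state of the protein, which was not measured here.

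Library totals lay between 18115926 and 19586374 estimated counts. Levels are given as CPM, a gene's count scaled to its library's total over tested genes, multiplied by edgeR's TMM scaling factor. CPM does not correct for gene length and so is compared within a gene only. Summed pluripotency markers (6 genes) lay between 2217 and 2243 CPM at day 0, between 3.15 and 4.56 CPM at day 4 and between 51.3 and 60.4 CPM at day 8. At day 2 they lay between 123 and 128.8 CPM with MS-275 and between 49.5 and 51.8 CPM with DMSO. Every other marker list summed was also higher with MS-275 than with DMSO. Neural progenitor markers lay between 823.3 and 853.6 against 697.6 and 701.1 CPM, and neuron markers between 319.7 and 332.5 against 267.3 and 290.3 CPM. Summed neuron markers (5 genes) lay between 2098 and 2183 CPM at day 4 and between 2781 and 2955 CPM at day 8, against 327 to 341 CPM at day 0. Summed fibroblast markers (5 collagen and matrix genes) lay between 447 and 488 CPM with MS-275 and between 23.7 and 26.1 CPM with DMSO, and between 735 and 1223 CPM at day 4 and day 8, so markers of other cell types moved with the groups, and their part in the results below was not tested. In such bulk samples fewer cells of a type and less RNA per cell cannot be told apart. The series describes its 2 libraries per group as biological replicates, and p-values measure the spread between these libraries.

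Trp53 (chromosome 11, 69580348 to 69591873, plus strand, GRCm38) was high in untreated cells, low at every later stage and high again with MS-275. Trp53 had 8.25 and 7.68 CPM at day 0, 5.55 and 3.98 CPM at day 2 with MS-275, 0.262 and 0.227 CPM at day 2 with DMSO, 0.787 and 1.00 CPM at day 4 and 0.465 and 0.212 CPM at day 8. The counts behind these levels were small outside day 0 and MS-275: 5 and 4 with DMSO, 15 and 18 at day 4, and 9 and 4 at day 8, against 157 and 137 at day 0 and 112 and 80 with MS-275. Both day 0 libraries and both MS-275 libraries stood above all 6 others. In the order of group means, each neighbour differed from the next (edgeR adjusted p = 0.0151 for MS-275 below day 0, 3.22e-06 for day 4 below MS-275 and 0.0239 for day 8 below day 4) except day 8 and DMSO (adjusted p = 0.511). The processed pseudogene Trp53-ps, a copy that could take reads from Trp53, was listed at 0 in all 10 libraries. Wrap53, the neighbour that starts 97 bases away on the opposite strand, averaged 16.7 ± 1.25 CPM with MS-275 and 13.4 ± 0.0891 CPM with DMSO (SD, n = 2), 1.24-fold higher (edgeR adjusted p = 0.0279).

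The stretch around the Trp53 start is shown with that of Ccng1, the target with a half-site that rose most under MS-275, to set a window with few peaks beside a window with peaks in all 14 lists. Both windows run from 250 bases before to 50 bases after a start (RefSeq, GRCm38.p6), 5′ to 3′ on the gene's strand, with a match to the p53 half-site in capitals. The Trp53 window is chr11:69580109-69580408, plus strand, with the match beginning 75 bases before its start. The Ccng1 window is chr11:40755237-40755536, minus strand, with the match beginning 185 bases before its start.
Trp53: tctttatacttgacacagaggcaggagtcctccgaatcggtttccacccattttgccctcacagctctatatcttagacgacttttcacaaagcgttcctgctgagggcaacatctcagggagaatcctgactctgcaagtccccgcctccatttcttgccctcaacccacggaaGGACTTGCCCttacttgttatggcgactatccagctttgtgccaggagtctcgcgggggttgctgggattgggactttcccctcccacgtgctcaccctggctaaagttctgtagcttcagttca
Ccng1: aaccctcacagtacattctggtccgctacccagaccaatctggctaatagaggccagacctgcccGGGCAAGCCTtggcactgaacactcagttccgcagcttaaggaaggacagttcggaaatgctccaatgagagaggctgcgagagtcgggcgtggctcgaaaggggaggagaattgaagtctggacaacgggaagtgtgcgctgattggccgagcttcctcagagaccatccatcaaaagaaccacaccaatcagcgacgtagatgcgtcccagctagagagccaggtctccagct

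Matches to the half-site in 3 other members are given with 20 bases on either side, again with the match in capitals, to show how the flanks differ. The Mdm2 stretch is chr10:117710915-117710964 on the minus strand, the Bax stretch is chr7:45467070-45467119 on the minus strand and the Aen stretch is chr7:78895917-78895966 on the plus strand.
Mdm2: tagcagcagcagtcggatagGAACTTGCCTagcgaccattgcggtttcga
Bax: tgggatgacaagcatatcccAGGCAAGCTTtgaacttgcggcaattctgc
Aen: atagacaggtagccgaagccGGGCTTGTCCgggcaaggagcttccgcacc

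The half-site was searched as its consensus decamer, which is its own reverse complement, so a match covers both strands; a full response element, which needs a second half-site nearby, was not searched. Of the 8 members with a window in the table, 5 held a match: Trp53, Mdm2 (186 bases before the start), Ccng1, Bax (201 bases before the start) and Aen, whose single match lies 121 bases before one annotated start and 10 bases after another. Among the 12358 tested genes with a window, 8.40% held one, and among all 32851 windows 8.36%. Fas, Bbc3 and Gdf15 held none in their windows, which says only that these letters are not in these 300 bases. No entry was used for Perp and Trp53inp1.

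**Figure D1:**
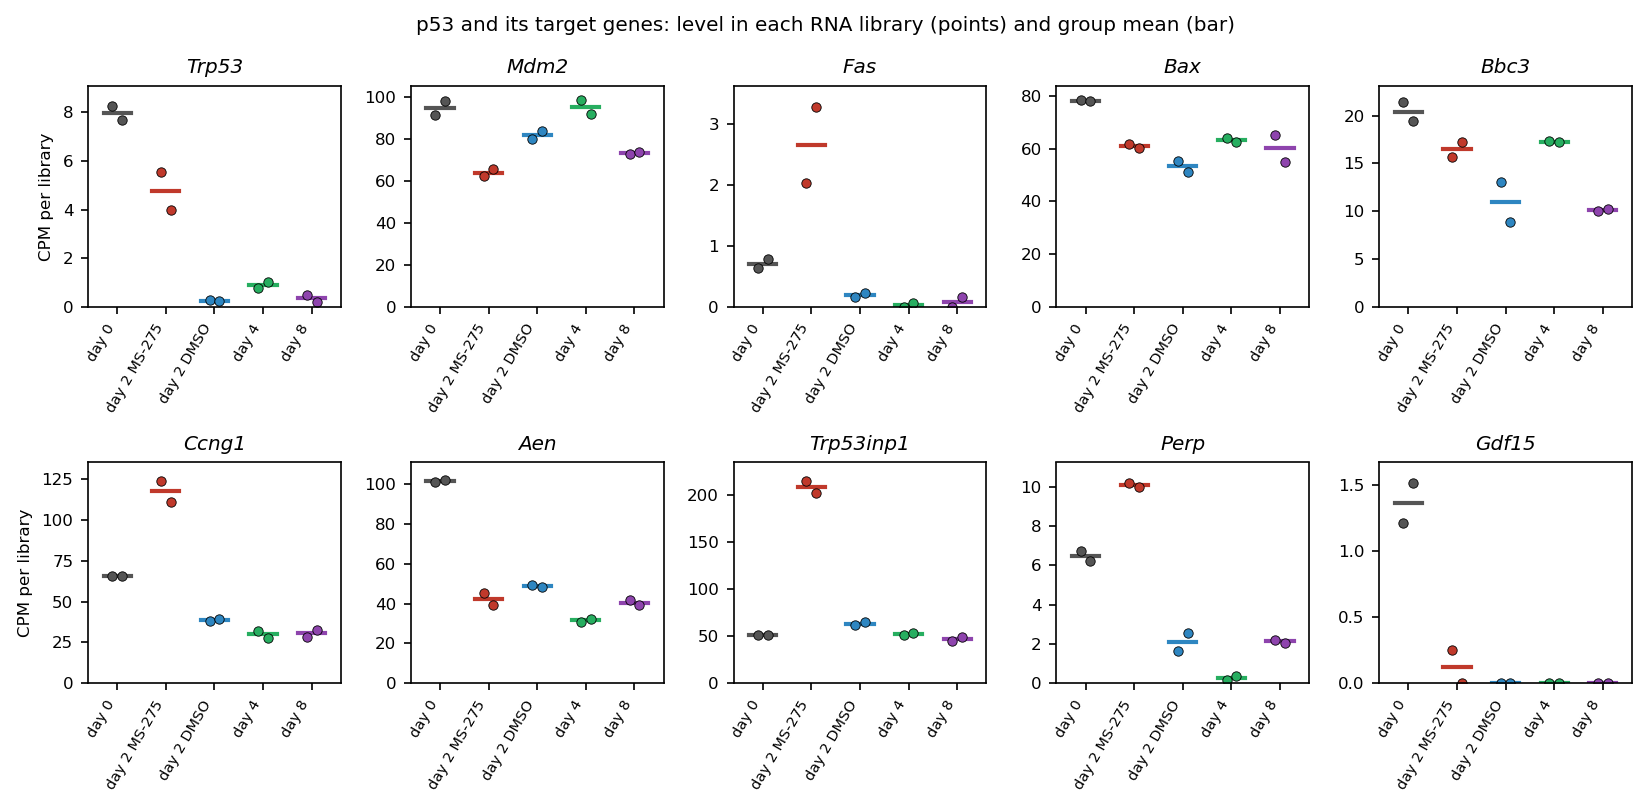
Level of each gene in CPM (vertical axis, linear, from 0) in each of the 10 RNA libraries (points), by group (horizontal axis), with the mean of 2 libraries as a bar. Trp53, Fas, Ccng1, Trp53inp1 and Perp stand higher with MS-275 than with DMSO in both libraries, and Gdf15 is at 0 in all libraries but the day 0 pair and 1 MS-275 library.

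The comparison of MS-275 with DMSO at day 2 asked what blocking class I deacetylases did to the program during the second day of retinoic acid. Among the members called, Trp53 itself rose the most, and of its 9 targets 6 rose and 2 fell. The rises were large for Fas, Perp, Trp53inp1 and Ccng1 and small for Bbc3 and Bax, while Mdm2 and Aen fell slightly. In all, 9 of 10 members were called by edgeR at an adjusted p under 0.05, 7 higher and 2 lower, where 63.3% of all 17789 genes tested were called, 31.9% higher and 31.4% lower. The median log2 fold change of the members was 1.66, or 1.102 with Gdf15 set at its lower bound, against 0.01 over all genes tested. All 10 members passed the filter on low counts; Gdf15 reached 10 counts in both libraries of a group at day 0 only, Fas in 2 groups, Trp53 in 3 and Perp in 4.

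Trp53 averaged 4.76 ± 1.11 CPM with MS-275 and 0.245 ± 0.0243 CPM with DMSO (SD, n = 2), 18.9-fold higher (log2 fold change 4.24, SE 0.39, edgeR adjusted p = 8.84e-08). The groups did not overlap, and MS-275 libraries remained below the day 0 level (log2 fold change −0.74, edgeR adjusted p = 0.0151). Mdm2 (chromosome 10, 117688875 to 117710758), the ligase that marks p53 for degradation, had 62.4 and 65.7 CPM with MS-275 and 80.0 and 83.8 CPM with DMSO. Mdm2 fell by 0.35 on the log2 scale (SE 0.07, edgeR adjusted p = 0.000190), and its MS-275 level was the lowest of the 5 groups.

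Among the targets that act on growth and stress, Ccng1 (chromosome 11, 40748552 to 40755309), which encodes cyclin G1, had 124 and 111 CPM with MS-275 and 38.3 and 39.3 CPM with DMSO. This was a 3.03-fold rise (log2 fold change 1.60, SE 0.08, edgeR adjusted p = 1.07e-10). Trp53inp1 (chromosome 4, 11156441 to 11174379), a stress protein that promotes p53-driven cell death and autophagy, had 215 and 203 CPM with MS-275 and 61.5 and 65.3 CPM with DMSO, 3.295-fold higher (log2 fold change 1.72, SE 0.07, edgeR adjusted p = 2.72e-12). Both genes were higher with MS-275 than in any library of the other 4 groups, day 0 included. Gdf15 (chromosome 8, 70629393 to 70632470), a secreted stress cytokine, had 5 counts in 1 MS-275 library, 0 in the other and 0 in both DMSO libraries. It was not called (edgeR adjusted p = 0.105), and without the MS-275 library that held no count the adjusted p was 0.0369.

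Among the targets that act in cell death, Fas (chromosome 19, 34290647 to 34327775), the death receptor at the cell surface, had 2.03 and 3.29 CPM with MS-275 and 0.157 and 0.227 CPM with DMSO. This was 13.5-fold higher (log2 fold change 3.75, SE 0.64, edgeR adjusted p = 8.44e-05), from 41 and 66 counts with MS-275 and 3 and 4 with DMSO. Perp (chromosome 10, 18845071 to 18857073), a membrane protein of desmosomes and of p53-driven death, had 10.2 and 10.0 CPM with MS-275 and 1.62 and 2.56 CPM with DMSO. Perp was 4.85-fold higher (log2 fold change 2.28, SE 0.24, edgeR adjusted p = 4.59e-07). Set against day 0, the MS-275 libraries had 4 members higher (Fas, Perp, Ccng1 and Trp53inp1) and 6 lower. Of all genes, edgeR called 69.6% in that comparison, 37.3% higher and 32.2% lower. The edgeR adjusted p was 0.00433 for Fas and 0.0138 for Perp. Gdf15, among the 6 lower, passed the filter on low counts through day 0 alone, so its fall adds no support to the count.

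Bbc3 (chromosome 7, 16308398 to 16318334), which encodes the BH3-only protein Puma, had 15.7 and 17.3 CPM with MS-275 and 13.0 and 8.87 CPM with DMSO, 1.499-fold higher (log2 fold change 0.58, SE 0.14, edgeR adjusted p = 0.00193). Without the second DMSO library the log2 fold change of Bbc3 was 0.33 and its edgeR adjusted p 0.0535, and without the first it was 0.89. Bax (chromosome 7, 45461695 to 45466903), the effector that opens the mitochondrial outer membrane, had 61.7 and 60.3 CPM with MS-275 and 55.5 and 51.3 CPM with DMSO, 1.14-fold higher (log2 fold change 0.19, SE 0.08, edgeR adjusted p = 0.0465). Aen (chromosome 7, 78895927 to 78911209), a nuclease that acts in p53-driven apoptosis, had 45.2 and 39.3 CPM with MS-275 and 49.1 and 48.3 CPM with DMSO, 1.15-fold lower (log2 fold change −0.21, SE 0.08, edgeR adjusted p = 0.0300). The Bax call was lost with no filter on low counts (edgeR adjusted p = 0.0713) and with each of the 4 libraries removed in turn (0.0559 to 0.307). The Aen call was lost with DESeq2 (adjusted p = 0.102), with its size factors in edgeR (0.0512), with only the 4 libraries fitted (0.0592), without the first or second DMSO library (0.114 and 0.0719) and without the second MS-275 library (0.293, log2 fold change −0.11). Without the first MS-275 library the log2 fold change of Aen was −0.31. With library size alone, which moves the median of all genes by 0.14 and the share of calls that were higher to 61.2%, against 50.4% with TMM factors, it was −0.07 for Aen (edgeR adjusted p = 0.463), −0.22 for Mdm2 (0.0102) and 0.33 for Bax (0.00156).

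**Figure D2:**
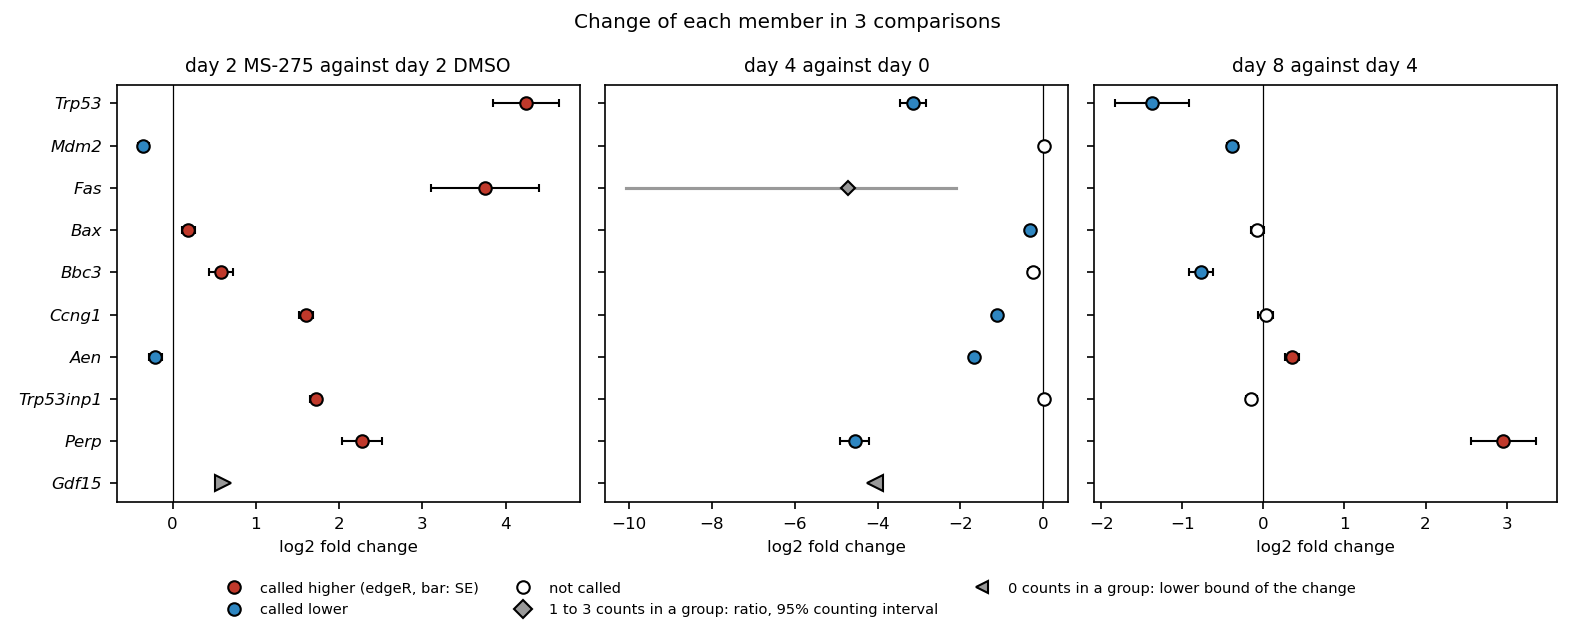
Log2 fold change of each member (horizontal axis) in 3 comparisons, as edgeR's estimate with its standard error (circles), as a ratio with its 95% counting interval where a group held 1 to 3 counts (diamonds) or as a bound where a group held 0 counts (triangles). Trp53, Fas and Perp lie farthest to the right for MS-275 against DMSO and, with Gdf15, farthest to the left for day 4 against day 0; members with at most 3 counts in both groups are not drawn.

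The DMSO cells at day 2, set against untreated cells at day 0, are the same libraries that served as the control above. They differ from day 0 cells in retinoic acid, DMSO and days in culture, which cannot be told apart here. Trp53 and 8 targets fell and Trp53inp1 rose, so all 10 members were called by edgeR, where 64.6% of all genes tested were called. The members had 9 lower and 1 higher, where 32.2% of all genes were called lower and 32.4% higher. Gdf15, among the 9 lower, passed the filter on low counts through day 0 alone. Its fall from day 0 followed from that filter and adds no support to the count. The largest falls were those of Trp53, Gdf15, Fas and Perp, the members that also had the fewest counts.

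Trp53 averaged 0.245 ± 0.0243 CPM with DMSO and 7.97 ± 0.400 CPM at day 0 (SD, n = 2), 31.7-fold lower (log2 fold change −4.98, SE 0.38, edgeR adjusted p = 6.20e-09). Gdf15 had 0 counts in both DMSO libraries and 23 and 27 counts at day 0, at least 16.6-fold lower with DMSO, where the DMSO libraries together were set at 3 counts (edgeR adjusted p = 0.000423, 0.196 with DESeq2). Fas had 3 and 4 counts with DMSO and 12 and 14 at day 0, 3.61-fold lower (edgeR adjusted p = 0.0360). The Fas call was lost with each of the 4 libraries removed in turn (edgeR adjusted p = 0.0596 to 0.160) and with DESeq2 (0.0566). Perp averaged 2.09 ± 0.662 CPM with DMSO and 6.48 ± 0.354 CPM at day 0, 3.11-fold lower (edgeR adjusted p = 2.33e-05).

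The members with higher counts fell less. Aen averaged 48.7 ± 0.548 CPM with DMSO and 101 ± 0.838 CPM at day 0, 2.08-fold lower (edgeR adjusted p = 2.46e-09). Bbc3 was 1.86-fold lower, Ccng1 1.70-fold lower and Bax 1.47-fold lower (edgeR adjusted p = 3.34e-05, 7.95e-07 and 1.10e-05). Mdm2 had 80.0 and 83.8 CPM with DMSO and 91.6 and 98.4 CPM at day 0, 1.16-fold lower (edgeR adjusted p = 0.00844), and lost its call without the second day 0 library (0.105) or the first DMSO library (0.0852). Trp53inp1 averaged 63.4 ± 2.74 CPM with DMSO and 51.0 ± 0.0869 CPM at day 0, 1.24-fold higher (edgeR adjusted p = 0.000853).

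Day 4 cells, the NSPCs of the labels, held less of most of the members than day 0 cells. Of the 10 members 7 fell and none rose, where 72.3% of all genes tested were called, 36.2% higher and 36.1% lower. Mdm2, Bbc3 and Trp53inp1 were not called. Gdf15, among the 7 that fell, passed the filter on low counts through day 0 alone, so its fall adds no support to the count. Perp, Fas, Gdf15 and Trp53 again had the largest falls.

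Trp53 averaged 0.894 ± 0.150 CPM at day 4 and 7.97 ± 0.400 CPM at day 0 (SD, n = 2), 8.88-fold lower (log2 fold change −3.15, SE 0.31, edgeR adjusted p = 8.73e-08). Perp averaged 0.273 ± 0.164 CPM at day 4, from 3 and 7 counts, and 6.48 ± 0.354 CPM at day 0. Its log2 fold change was −4.55 (SE 0.35, edgeR adjusted p = 4.05e-09), and −5.35 without the second day 4 library. Fas held 1 count in the 2 day 4 libraries together and 26 counts at day 0, a ratio of day 0 over day 4 of 26.1 with a 95% counting interval of 4.29 to 1071 (edgeR adjusted p = 0.00112). The fitted log2 fold change of Fas was −3.57 without the first day 4 library, which held no count, and −6.80 without the second. Gdf15 held 0 counts at day 4 and 50 at day 0, at least 16.8-fold lower (edgeR adjusted p = 0.000338, 0.181 with DESeq2).

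Aen averaged 31.7 ± 1.15 CPM at day 4 and 101 ± 0.838 CPM at day 0, 3.20-fold lower (edgeR adjusted p = 4.89e-12), its lowest level of the 5 groups. Ccng1 had 32.2 and 27.9 CPM at day 4 and 65.78 and 65.84 CPM at day 0, 2.19-fold lower (edgeR adjusted p = 4.83e-09). Bax was 1.24-fold lower (edgeR adjusted p = 0.00192). Mdm2 had 98.6 and 92.2 CPM at day 4 and 91.6 and 98.4 CPM at day 0 (log2 fold change 0.01, SE 0.06), and Trp53inp1 52.0 ± 1.20 CPM at day 4 and 51.0 ± 0.0869 CPM at day 0 (log2 fold change 0.03, SE 0.07). Bbc3 averaged 17.3 ± 0.110 CPM at day 4 and 20.4 ± 1.36 CPM at day 0 (log2 fold change −0.24, SE 0.13, edgeR adjusted p = 0.119), with no overlap between the groups.

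At day 4 against day 2 with DMSO the members moved in both directions. Trp53, Mdm2, Bax and Bbc3 rose and Ccng1, Aen, Trp53inp1 and Perp fell, 8 of 10 called by edgeR where 61.2% of all genes were, 30.6% in each direction. Trp53 averaged 0.894 ± 0.150 CPM at day 4 and 0.245 ± 0.0243 CPM at day 2 with DMSO, 3.57-fold higher (edgeR adjusted p = 0.00406). Bbc3 was 1.57-fold higher, Bax 1.18-fold and Mdm2 1.17-fold higher (edgeR adjusted p = 0.000805, 0.0143 and 0.00741). Perp was 7.54-fold lower (log2 fold change −2.91, edgeR adjusted p = 9.14e-06), with a log2 fold change of −3.65 without the second day 4 library. Aen was 1.54-fold lower (edgeR adjusted p = 3.95e-06), Ccng1 1.29-fold (0.00231) and Trp53inp1 1.22-fold lower (0.00193). The Mdm2, Bax and Ccng1 calls were each lost without 1 library: Mdm2 without the first DMSO or first day 4 library (edgeR adjusted p = 0.0862 and 0.0719), Bax without the second DMSO or first day 4 library (0.149 and 0.0675) and Ccng1 without the second day 4 library (0.0570). The log2 fold change of Bbc3 was 0.65, and 0.40 without the second DMSO library. Fas, with 1 count at day 4 and 7 with DMSO, was not called (edgeR adjusted p = 0.101), and Gdf15 held 0 counts in both groups. Day 4 libraries stand in this comparison and in both others of day 4, so these are not independent.

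At day 8, after 4 more days in neuronal medium, against day 4, Perp and Aen rose and Trp53, Mdm2 and Bbc3 fell. In all, 5 of 10 members were called by edgeR, where 41.5% of all genes tested were, 21.7% higher and 19.8% lower. Perp averaged 2.14 ± 0.111 CPM at day 8 and 0.273 ± 0.164 CPM at day 4 (SD, n = 2), 7.77-fold higher (edgeR adjusted p = 1.62e-05), with a log2 fold change of 2.96 that was 3.70 without the second day 4 library. Aen was 1.28-fold higher (edgeR adjusted p = 0.00223). Bbc3 averaged 10.2 ± 0.176 CPM at day 8 and 17.3 ± 0.110 CPM at day 4, 1.70-fold lower (edgeR adjusted p = 0.000386), and Mdm2 averaged 73.2 ± 0.679 CPM at day 8 and 95.4 ± 4.51 CPM at day 4, 1.30-fold lower (0.000166). Trp53 had 9 and 4 counts at day 8 and 15 and 18 at day 4, 2.59-fold lower (edgeR adjusted p = 0.0239), a call lost without the second library of day 8 (0.166) or of day 4 (0.117) and with only the 4 libraries fitted (0.0661); without the first day 8 library its log2 fold change was −2.05. Fas held 3 counts at day 8 and 1 at day 4, too few for a fold, and Gdf15 held 0 in both groups. Bax, Ccng1 and Trp53inp1 were not called, at log2 fold changes of −0.07, 0.03 and −0.15 (edgeR adjusted p = 0.501, 0.833 and 0.105).

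Over the 5 groups the members fell into different orders of level. Trp53, Aen, Bax and Gdf15 were highest at day 0, Bbc3 at day 0 and day 4, which did not differ (edgeR adjusted p = 0.119), Fas, Ccng1, Trp53inp1 and Perp with MS-275, and Mdm2 at day 4 and day 0, which did not differ (edgeR adjusted p = 0.936). Bax differed between day 0 and the next group in order, day 4, while its 4 lower groups did not differ from their neighbours (edgeR adjusted p from 0.0702 to 0.832). Within those 4 groups, though, Bax was called higher at day 4 and with MS-275 than with DMSO (edgeR adjusted p = 0.0143 and 0.0465). Trp53inp1 was highest with MS-275 and next with DMSO, which stood above day 4 (edgeR adjusted p = 0.00193), while day 4 and day 0, and day 0 and day 8, did not differ (0.736 and 0.132). Profiles over the 10 libraries were compared, by root mean square distance of centred log2 CPM, with genes at a mean of at least 5 CPM. Among 11229 such genes, the nearest to Trp53 were Fblim1 (distance 0.164), Gpsm3 (0.332) and Vill (0.371), against a median of 1.496 over all of them. The pseudocount of 0.5 CPM in these distances exceeds the Trp53 means with DMSO (0.245) and at day 8 (0.339). It shrinks the falls of Trp53 more than those of genes at higher levels, such as Fblim1. Fblim1, for one, had 91.9 and 85.5 CPM with MS-275 and 14.6 and 13.3 CPM with DMSO, beside 138 and 144 CPM at day 0. Nearest to Mdm2 were Malsu1 (0.0577), Lrrc61 (0.0631) and Xpc (0.0641), against a median of 0.464; Xpc, a sensor of damaged bases in DNA repair, is also on the list of other p53 targets.

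The neighbours of the members in the pathway were described through lists chosen with earlier results of these data known. The regulators of p53 (30 genes) moved mostly down under MS-275: 6 rose and 19 fell, with a median log2 fold change of −0.31 against 0.01 over all genes. Cdkn2a, whose Arf product blocks Mdm2, averaged 13.4 ± 1.08 CPM with MS-275 and 1.62 ± 0.445 CPM with DMSO (SD, n = 2), 8.19-fold higher (edgeR adjusted p = 4.26e-08). Counts are per gene, so the Arf transcript was not measured apart. Ppp1r13b, which encodes the p53 cofactor ASPP1, was 6.80-fold higher (edgeR adjusted p = 1.63e-09). The lysine methyltransferase Setd7 was 2.27-fold lower (edgeR adjusted p = 2.09e-10). Mdm4, the partner of Mdm2 that blocks p53, averaged 163 ± 4.196 CPM with MS-275 and 163 ± 9.95 CPM with DMSO and was not called (log2 fold change 0.00, SE 0.06).

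Of the family, which counts Trp53 again, Trp63 rose too, 9.50-fold (edgeR adjusted p = 0.00172), at 1.09 ± 0.277 CPM with MS-275 and 0.109 ± 0.00638 CPM with DMSO. Trp73 averaged 3.13 ± 0.410 CPM with MS-275 and 3.36 ± 0.652 CPM with DMSO and was not called. Other targets that act on the cell cycle and growth (20 tested) had 10 higher and 6 lower. Cdkn1a, which encodes the cyclin-dependent kinase inhibitor p21, had 51.2 and 43.9 CPM with MS-275 and 11.9 and 10.3 CPM with DMSO, beside 3.99 and 3.70 CPM at day 0. This was 4.26-fold higher than with DMSO (edgeR adjusted p = 1.22e-10). The polo-like kinase gene Plk3 was 4.24-fold lower (edgeR adjusted p = 1.42e-09) and the cell cycle arrest gene Rprm 3.15-fold lower (2.04e-08). Other targets in death and damage repair (27 of 30 tested) had 15 higher and 7 lower under MS-275, with a median log2 fold change of 0.56. Eda2r, a receptor of the tumour necrosis factor family, was 11.2-fold higher, the glutaminase gene Gls2 4.12-fold and the Akt inhibitor gene Phlda3 3.63-fold higher (edgeR adjusted p = 1.90e-07, 2.96e-07 and 3.21e-06). The collagen receptor gene Ddr1 was 2.00-fold lower (1.02e-09).

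The death machinery around Bax, Bbc3 and Fas (25 of 27 tested) had 4 higher and 13 lower under MS-275, with a median log2 fold change of −0.23. Bok, a relative of Bax, was 3.13-fold lower (edgeR adjusted p = 2.79e-07) and the BH3-only gene Hrk 1.79-fold lower (0.000541), while the BH3-only gene Bik was 2.17-fold higher (0.0441). Over all genes tested, 63.3% were called in this comparison, beside 83.3% of the regulators, 80% and 81.5% of the 2 lists of other targets and 68% of the death machinery.

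**Figure D3:**
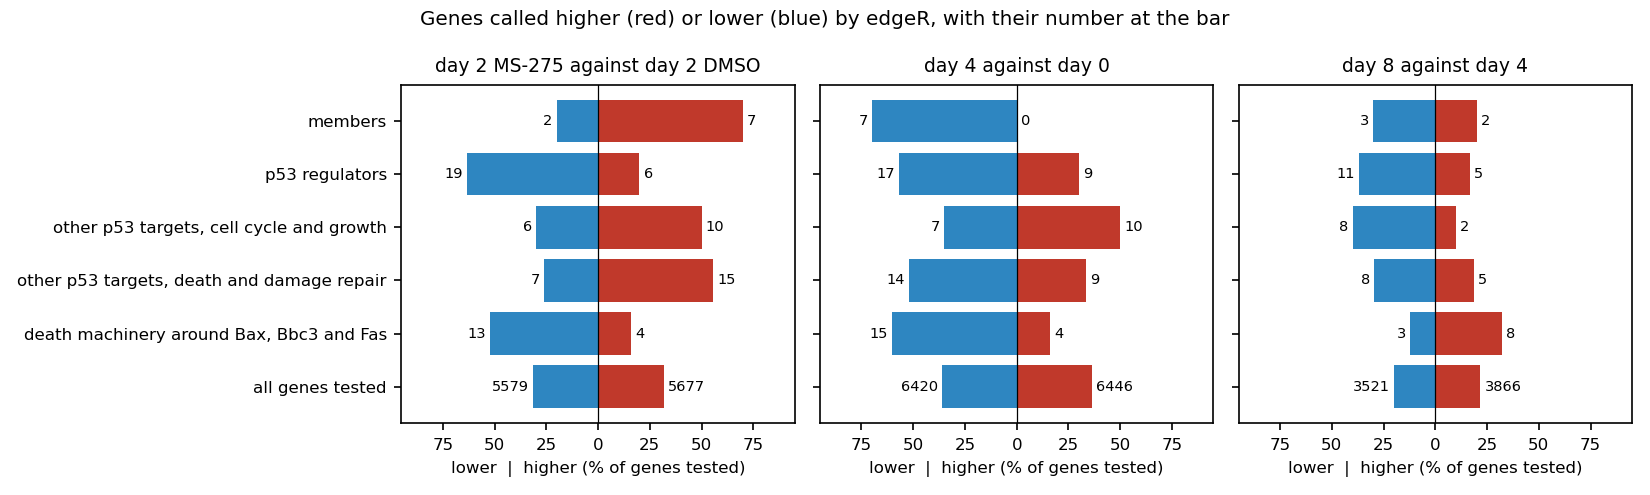
Percentage of the genes tested that edgeR called higher (right, red) or lower (left, blue) in 3 comparisons, for the 10 members, 4 lists of related genes and all 17789 genes tested, with the number of genes at each bar. Under MS-275 the members and both lists of other p53 targets have more genes higher than lower. The regulators and the death machinery have more lower than higher. At day 4 the members have 7 lower and 0 higher, with Gdf15, which passed the filter through day 0 alone, among the 7.

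At day 4 against day 0 the regulators had 9 higher and 17 lower, and the death machinery 4 higher and 15 lower, 86.7% and 76% called where 72.3% of all genes were. Twist1, a repressor of p53 activity, averaged 45.2 ± 7.15 CPM at day 4 and 0.701 ± 0.198 CPM at day 0 (edgeR adjusted p = 5.68e-14), the kinase gene Hipk2 was 4.41-fold higher (3.42e-15) and the deacetylase gene Sirt1 4.95-fold lower (4.21e-13). Mdm4 was 1.54-fold higher (edgeR adjusted p = 1.01e-07) and Cdkn2a 5.55-fold lower (0.000130). Trp73 averaged 0.219 ± 0.161 CPM at day 4 and 46.1 ± 3.98 CPM at day 0 (edgeR adjusted p = 5.22e-14). Other targets in the cell cycle had 10 higher and 7 lower, led by Plk2 (27.3-fold), Plk3 (10.9-fold) and Btg2 (9.33-fold higher), with Trp53cor1, the long noncoding RNA beside Cdkn1a, 5.95-fold lower (edgeR adjusted p = 2.49e-15, 3.88e-12, 2.32e-15 and 8.51e-06). Cdkn1a averaged 6.35 ± 0.216 CPM at day 4 and 3.85 ± 0.206 CPM at day 0, 1.65-fold higher (edgeR adjusted p = 0.000642). Other targets in death and repair had 9 higher and 14 lower, with Trp53i11 30.6-fold and Ier5 19.3-fold higher and the ferrireductase gene Steap3 60.8-fold lower (edgeR adjusted p = 6.12e-18, 1.35e-15 and 3.60e-12). The BH3 genes Bik, Hrk and Bid were 5.20-fold, 4.82-fold and 4.44-fold lower, and the survival gene Bcl2l1 2.59-fold higher (edgeR adjusted p = 0.000591, 4.73e-10, 5.61e-12 and 1.91e-10).

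At day 2 with DMSO against day 0 the regulators had 13 higher and 12 lower, the 2 lists of other targets 8 and 10 higher and 6 and 13 lower, and the death machinery 8 higher and 14 lower. The shares called were 83.3%, 70%, 85.2% and 88%, where 64.6% of all genes were called. Plk2 was 54.8-fold higher and the BH3-only gene Bmf 5.80-fold higher (edgeR adjusted p = 3.49e-16 and 8.43e-14), Bcl2 was 6.01-fold lower (2.36e-10) and Cdkn1a 2.89-fold higher (9.95e-08). At day 8 against day 4 the regulators had 5 higher and 11 lower, the cell cycle targets 2 and 8, the death and repair targets 5 and 8, and the death machinery 8 higher and 3 lower. The shares called were 53.3%, 50%, 48.1% and 44%, near the 41.5% over all genes (21.7% higher and 19.8% lower). Hrk was 7.99-fold and Ppp1r13b 3.87-fold higher, and Twist1 6.11-fold and Gadd45a 2.86-fold lower (edgeR adjusted p = 8.62e-11, 4.84e-08, 2.65e-10 and 2.15e-09). At day 4 against day 2 with DMSO the counts were 10 higher and 15 lower for regulators, 8 and 6 for cell cycle targets, 7 and 11 for death and repair targets, and 4 and 9 for the death machinery. The shares called were 83.3%, 70%, 66.7% and 52%, where 61.2% of all genes were called. Ier5 was 11.4-fold and Btg2 6.03-fold higher (edgeR adjusted p = 1.63e-14 and 5.11e-14), Chek1 2.64-fold and Bmf 3.87-fold lower (2.13e-10 and 1.39e-12).

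The peak lists were read for each member within 1 kb of its annotated ends, with no test, since they hold no counts per region. The 2 day 4 lists of a mark are separate libraries and each day 2 list is 1 library; fold enrichment is the authors' value for each peak, over local background, and is used only within a list. The MS-275 H3K9ac list held 84418 peaks with a median fold of 4.73 and a median length of 827 bases, and the DMSO list 26555 peaks with a median fold of 13.8 and a median length of 1069 bases, so a fold in one list is not set against another. For Perp and Trp53inp1, whose strand was not in the tables used, the lower-coordinate end stands in for the start.

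A peak across the Trp53 start was listed with MS-275 only. Positions are in bases from the annotated 5′ end, negative upstream. The MS-275 H3K9ac list held a peak from −639 to 290 (fold 4.62), and it was the 1 list of 14 with a peak over that end. The same peak also covers the first annotated start of Wrap53, at −98, so it is not particular to Trp53. The MS-275 H3K18la list held a peak from 80 to 409 (fold 4.00), and the first day 4 H3K9ac list a peak from −705 to −381 (fold 3.84).

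The strong peaks of the locus lay farther upstream, most of them over the second annotated start of Wrap53 at −1099. The MS-275 H3K9cr peak ended just short of that start, running from −3079 to −1108 (fold 27.2), and the DMSO H3K9cr peak ran over it, from −2591 to −1054 (fold 63.0). With MS-275 the upstream H3K9ac peak ran from −2827 to −1088 (fold 23.3), and with DMSO from −2680 to −996 (fold 54.6). These folds are not compared between lists. By fold within its own list, the H3K9ac peak stood at percentile 98.9 with MS-275 and 85.1 with DMSO, and the H3K9cr peak at 99.5 and 87.2. At day 4 the H3K9ac and H3K9cr peaks began between −2749 and −2707 and ended between −996 and −976 (folds 102 to 115). The day 4 ATAC-seq peaks, at folds of 11.9 and 10.6, lay at −1347 to −944 and −1245 to −745. Of the 9 lists with a peak within 1 kb of the Trp53 start, 7 thus have as their strongest such peak one that ends upstream of it, at −745 or farther. The 300-base window printed above for Trp53 was overlapped by a peak in 1 of 14 lists, and the Wrap53 window at its second start in 11 of 14.

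**Figure D4:**
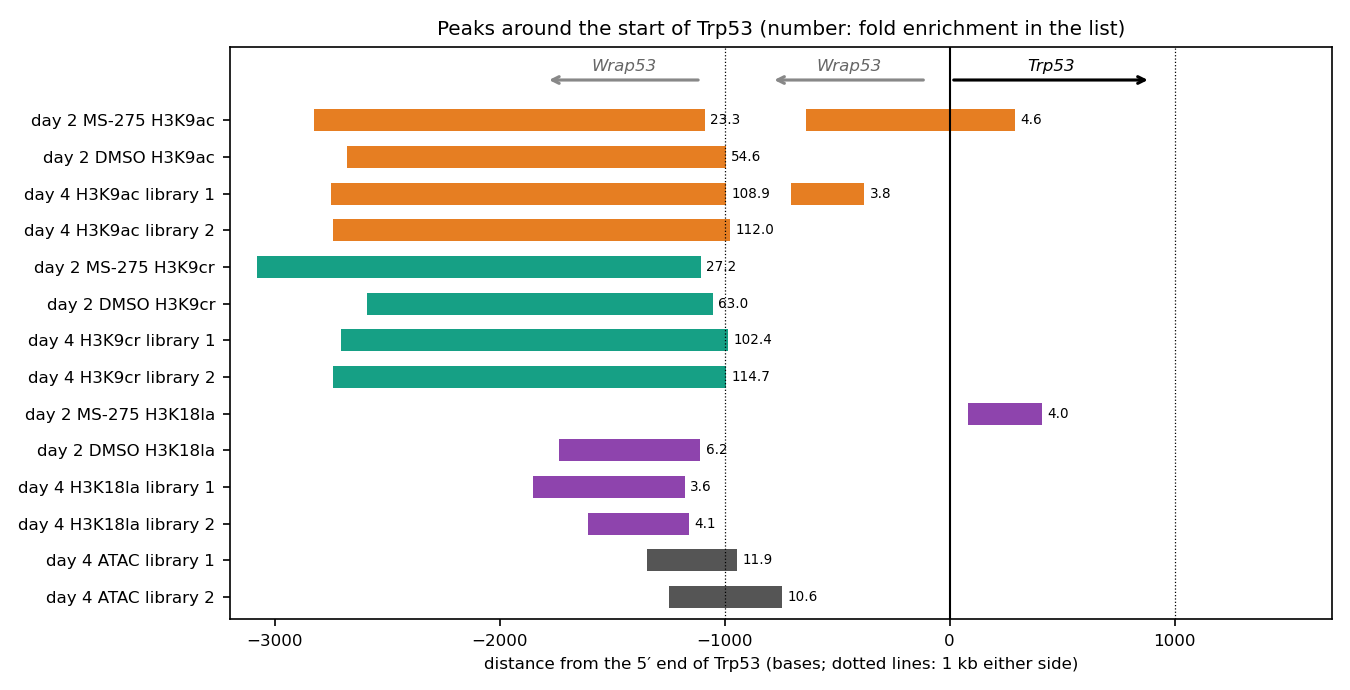
Peaks in the 14 lists between 3.2 kb before and 1.7 kb after the annotated 5′ end of Trp53 (horizontal axis, bases), with the fold enrichment of each peak in its own list and arrows for the annotated starts of Trp53 and of Wrap53, which runs the other way. The MS-275 H3K9ac list holds the only peak across the Trp53 start (fold 4.6), and that peak also covers the first start of Wrap53. The H3K9ac and H3K9cr peaks with the highest fold in each list lie over the second start of Wrap53, except that of H3K9cr with MS-275, which ends just before it.

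The starts of the other members carried peaks in 10 or more lists, except that of Gdf15, with 7 of 14. Mdm2 had a peak at its start in 13 lists, Bax and Aen in 13 each, Ccng1 and Trp53inp1 in 14, Fas in 12, Perp in 11 and Bbc3 in 10. In the H3K9ac lists, 10 of 10 members had a start peak with MS-275, 9 with DMSO, and 10 and 9 in the day 4 lists, where 88.6%, 82.4%, 85.1% and 85% of tested genes with a strand had one. H3K9cr gave 9 with MS-275, 8 with DMSO, and 10 and 9 at day 4, where 87.8%, 82.3%, 83.7% and 83.6% of those genes had one. H3K18la gave 6 with MS-275 and 7 with DMSO, and 7 and 7 at day 4, where 27.9%, 71%, 73.2% and 74.2% had one. ATAC-seq at day 4 gave 8 and 7 members, where 72.8% and 70.2% had one. For H3K18la with MS-275, 7 members had a peak at either end, but 3 had one with a −log10 q of at least 5 and 0 with one of at least 10. The share over all genes was not computed at these cuts.

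With the 3′ end counted as well, H3K9ac gave 10 members with MS-275, 10 with DMSO and 10 in each day 4 list, where 88.3%, 81.6%, 84.5% and 84.4% of tested genes had a peak. H3K9cr gave 9 with MS-275, 9 with DMSO and 10 in each day 4 list, where 87.4%, 81.5%, 82.9% and 82.9% had one. H3K18la gave 7 with MS-275, 8 with DMSO and 7 in each day 4 list, where 30.4%, 71.1%, 73.4% and 74.2% had one. ATAC-seq gave 9 and 8, where 71.8% and 69% had one.

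Within a list the members differed in the strength of their start peaks. In the 2 day 4 H3K9ac lists Mdm2 had folds of 86.0 and 65.5, Ccng1 86.0 and 62.1, Trp53inp1 80.6 and 89.9, Bax 70.0 and 62.4 and Aen 58.3 and 29.6. Fas had 6.47 and 6.80 and Perp 14.4 and 15.2, the lowest of the members with a peak over the start. Neither Fas nor Perp had an H3K18la start peak at day 4, and Perp had none with MS-275 either, while Mdm2 (14.78 and 13.98) and Trp53inp1 (12.4 and 12.5) did at day 4. Mdm2 and Aen had H3K18la start peaks with DMSO and at day 4 but none with MS-275. Perp, whose RNA rose, also had one with DMSO (fold 3.85) and none with MS-275. Of all tested genes with a strand, 71% had one with DMSO and 27.9% with MS-275. With MS-275 the H3K9ac peak over the Fas start spanned 1863 bases against 880 with DMSO, and that over the Perp start 2022 against 781. The same held for members whose RNA fell, Mdm2 (4009 bases with MS-275 against 2322 with DMSO) and Aen (4014 against 1730), so the longer peaks were not particular to the genes that rose. It also held for Ccng1 (2260 against 1120) and Trp53inp1 (4063 against 1960). At Bax the MS-275 peak (8910 bases) ran from −2055 to 6854, past the 3′ end. With DMSO a peak of 1740 bases lay over the Bax start and another from 4941 to 9473, so these lengths are not alike. The Aen peaks also cover the start of the noncoding gene Gm39039, 144 bases away on the opposite strand.

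A peak covered the start of 10 of 10 members in the MS-275 H3K9ac list and of 7 in the DMSO list, where 63.1% and 66.1% of tested genes with a strand had a covered start. H3K9cr gave 8 with MS-275 and 7 with DMSO, and H3K18la 1 and 2, with no share over all genes computed. These counts include Perp and Trp53inp1, at their lower-coordinate end.

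Bbc3 and Gdf15 differed from the rest in where their peaks lay. At Bbc3 the strongest H3K9ac peak with DMSO (fold 59.6) lay 2999 to 6388 bases inside the gene, and with MS-275 a single peak of 8391 bases ran from −883 to 7507 (fold 23.6). Its 3 promoter windows, at starts that RefSeq places inside the gene, were overlapped by peaks in 10 to 12 lists. At Gdf15 the H3K9ac peak with DMSO covered 1284 to 3083 bases after the start (fold 32.0), and the day 4 peaks 855 to 3324 and 1011 to 3167 bases after it (folds 24.2 and 20.7), although the gene had 0 counts in the matched RNA groups. With MS-275 the H3K9ac and H3K9cr peaks over Gdf15 ran across its start, from −131 and −120 (folds 13.6 and 11.8), as did the H3K18la peak of the first day 4 list, from −33 (fold 14.4). Both MS-275 peaks also cover the start of the long noncoding RNA gene Gm34154, 92 bases away on the opposite strand, so they are not particular to Gdf15. At the 3′ end of Bax the H3K9ac peak (fold 101 with DMSO, 120 and 98.4 at day 4) extended over the neighbouring ferritin gene Ftl1, which lies 1808 bases from Bax.

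**Figure D5:**
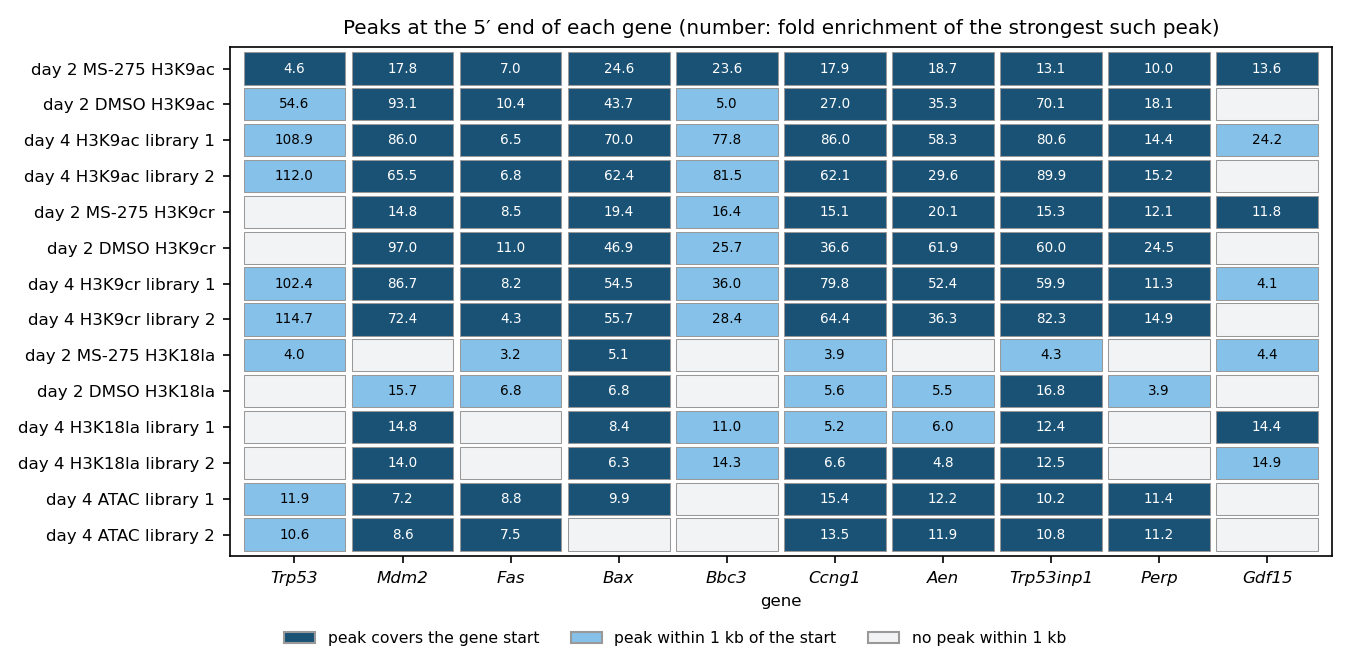
Peaks at the 5′ end of each member (columns) in the 14 lists (rows): dark where a peak covers the annotated start, light where a peak lies within 1 kb of it, grey where there is none, with the fold enrichment of the strongest covering peak, or else of the strongest peak nearby, in its own list. In the MS-275 H3K9ac row all 10 starts are covered (63.1% of tested genes with a strand), against 7 in the DMSO row (66.1% of those genes), where Trp53, Bbc3 and Gdf15 are not.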

How the data were processed

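RNA values were the authors' deposited table of estimated counts per gene, not all whole, made with Salmon 1.1.0 on GRCm38 per the submitters' processing notes; annotation release and strand setting are not given in the sources used here. Peak lists were deposited per library, with Bowtie2 2.4.1 and MACS2 2.2.7.1 named in the same notes. Per the file headers they hold a fold enrichment, a −log10 p-value, a −log10 q-value and a pileup signal for each peak; the control and caller settings are not given in the sources used here, and the depth of these libraries is unknown.

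Estimated counts were rounded and fitted with edgeR 4.0.16 (quasi-likelihood, TMM, filterByExpr) in R 4.3.3, in 1 fit over 10 libraries, with Benjamini-Hochberg adjustment over 17789 genes. Genes were called at an adjusted p under 0.05. The fit was tested on simulated data. DESeq2 1.42.0, other scalings and filters, fewer libraries and a replicate block were alternatives. CPM used library totals over tested genes, multiplied by the TMM factors.

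The members and lists were chosen with earlier results of these data known. All members were named, and per list the 3 called genes with the largest change at a mean of 1 CPM or more, with the top one in the opposite direction, plus Cdkn1a, Mdm4 and Cdkn2a; the text gives a part of these in the later comparisons, and Wrap53, Trp63 and Trp53-ps were added for their bearing on Trp53. The pseudocount of 0.5 in the profile distances and the comparisons between neighbours in level were set after the values were seen. Intervals cover counting error only. Input libraries were not used here.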

Additional observations from a re-analysis of the deposited data

How the results depend on the processing

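In the MS-275 comparison, 2 members were called lower in edgeR, and 1 with DESeq2, 1 with DESeq2's size factors, 1 with library size alone and 1 with only the 4 libraries compared: Aen lost its call in each, and the cause was not tested. Over all 17789 genes, edgeR called 11256 in either direction, DESeq2 10084, its size factors in edgeR 11188 and library size alone 10965. With only the 4 libraries compared, 11309 of 16336 genes were called. With each library left out in turn, a group held 1 library, so the numbers of members called are not compared. No direction of a called member reversed under any alternative run. At day 8 against day 4, Bax was called without the first day 8 library (edgeR adjusted p = 0.0446) and Trp53inp1 without the second (0.0237). Samples with the same replicate number did not deviate together over all genes (correlations of −0.0306 to 0.0378). This shows no large shared shift but cannot tell whether same-numbered libraries were prepared together. With the replicate block the members called stayed at 9 for MS-275 against DMSO and 10 for day 2 with DMSO against day 0. Of all 17789 genes, 11182 and 11417 were called there. The members called stayed at 7 for day 4 against day 0 and 8 for day 4 against day 2 with DMSO. Of all genes, 12801 and 10813 were called. For day 8 against day 4 the members called stayed at 5, where 7312 genes were called. Of 140 pairs of a gene and a list, 124 had a peak within 1 kb of a gene end, against 115 within 0.5 kb, 135 within 5 kb, 119 at a −log10 q of at least 5, 107 at 10 and 110 by summit. Shares over all tested genes were computed for the 1 kb setting only, so counts at the other settings have no background here. Low counts limit Fas, Gdf15, Trp53 and Perp: the lowest groups hold 0 to 10 counts in 2 libraries together for Fas, Gdf15, Trp53 and Perp, and 2 libraries per group allow no check of 1 library against several.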
